A study of Mus musculus with 20 samples.

Results

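The genes described here are 9 markers of T, NK and B lymphocytes in mouse liver: Cd3e, Cd4, Cd8a, Cd8b1, Nkg7, Gzma, Gzmb, Ms4a1 and Ltb. They are all the rows of the count table that carry these symbols, 9 of 50559 genes, and the rule names genes and uses no measured value, although it was set with earlier results of these data known. All 20 livers came from mice with the floxed allele Cideb fl/fl. WT livers were given AAV-TBG-GFP and KO livers AAV-TBG-Cre, with 5 livers on WD (Western diet) and 5 on CDA-HFD (a choline-deficient, amino acid-defined high-fat diet) for each vector, and the labels give a feeding time of 3 months for both diets. The TBG promoter is active in hepatocytes, so the cells that carry these 9 markers were not themselves the target of the recombinase, and RNA of liver tissue was sequenced.

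Lymphocytes are a minority of the cells in a liver, where T cells, NK cells and B cells lie in the sinusoids and around the portal tracts and gather in chronic steatohepatitis. T cells are recognised by the CD3 chains of the antigen receptor and divide into helper cells with CD4 and cytotoxic cells with CD8, a pair of an alpha and a beta chain. Cytotoxic T cells and NK cells share granules that hold granzymes, B cells carry CD20, and lymphotoxin beta is a membrane-bound ligand of the tumor necrosis factor family that lymphocytes use to organise lymphoid tissue. In a bulk library, fewer cells of a type and less RNA per cell cannot be told apart.

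Promoters of 4 of the markers are shown because these genes behaved differently from one another: Cd3e and Nkg7 went together across livers, Gzmb was the marker that separated KO from WT livers on CDA-HFD, and Ltb had the largest fitted diet difference of the 9 in WT livers. Each runs 5′ to 3′ on the strand of the gene, from 250 bases before to 50 bases after the start site of RefSeq in GRCm38.p6, and RefSeq promoters were at hand for 6 of the 9 markers. Capitals mark matches, on either strand, to TGTGGT (a RUNX core), GGAAGT (an ETS core), TGANTCA (AP-1) or the NF-kB consensus.
Cd3e (chr9:45009562-45009861, minus strand): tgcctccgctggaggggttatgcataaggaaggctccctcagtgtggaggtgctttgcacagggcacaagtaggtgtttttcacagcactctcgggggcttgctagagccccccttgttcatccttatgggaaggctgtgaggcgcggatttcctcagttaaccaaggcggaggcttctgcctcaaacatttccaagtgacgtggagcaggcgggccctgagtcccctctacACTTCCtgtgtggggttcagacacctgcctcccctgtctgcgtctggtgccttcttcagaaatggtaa
Nkg7 (chr7:43436888-43437187, plus strand): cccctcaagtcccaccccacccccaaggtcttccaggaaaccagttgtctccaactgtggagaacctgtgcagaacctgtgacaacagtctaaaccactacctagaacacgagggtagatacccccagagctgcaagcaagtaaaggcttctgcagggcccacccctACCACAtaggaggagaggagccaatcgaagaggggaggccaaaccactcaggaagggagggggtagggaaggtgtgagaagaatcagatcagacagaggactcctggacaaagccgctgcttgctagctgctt
Gzmb (chr14:56262285-56262584, minus strand): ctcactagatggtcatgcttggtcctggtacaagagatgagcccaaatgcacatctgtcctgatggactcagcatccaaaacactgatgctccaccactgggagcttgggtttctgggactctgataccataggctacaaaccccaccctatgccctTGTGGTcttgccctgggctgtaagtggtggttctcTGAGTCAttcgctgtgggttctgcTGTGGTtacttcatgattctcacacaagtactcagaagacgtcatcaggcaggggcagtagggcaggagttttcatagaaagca
Ltb (chr17:35194257-35194556, plus strand): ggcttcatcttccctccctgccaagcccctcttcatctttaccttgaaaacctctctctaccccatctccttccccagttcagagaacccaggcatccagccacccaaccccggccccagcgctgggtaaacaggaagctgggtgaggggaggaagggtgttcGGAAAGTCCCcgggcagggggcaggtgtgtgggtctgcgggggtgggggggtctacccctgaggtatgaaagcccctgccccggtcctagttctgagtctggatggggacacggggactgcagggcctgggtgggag

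The 4 windows hold different matches. Gzmb has a pair of TGTGGT matches, at -93 to -88 and -34 to -29 from the start site, with TGANTCA between them at -58 to -52. Nkg7 has 1 match to TGTGGT, on the other strand at -83 to -78, and Gzma, not printed, has 1 at -50 to -45. Ltb has 1 match to the NF-kB consensus, on the other strand, at -87 to -78, and Cd3e has 1 to GGAAGT, on the other strand, at -18 to -13. Among 32851 promoters of the same length, 16.8% hold TGTGGT, 7.81% TGANTCA, 23.8% GGAAGT and 4.51% the NF-kB consensus. A match is a run of letters and was not tested as a binding site.

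Between 11697049 and 16827147 reads fell on genes per liver, and at that depth the markers were covered thinly, with 0 to 140 reads per marker and liver. Counting error alone is therefore large for the lowest of them: the 5 KO livers on WD held 16 Cd8b1 reads in all, with a 95% Poisson interval of 9.15 to 26.0. Levels are given as CPM (reads of a gene relative to all reads on genes) scaled by TMM, a method that corrects the library sizes for shifts in composition. Cideb averaged 6.06 ± 1.12 CPM (SD, n = 5) in WT livers given WD and 0.155 ± 0.165 in the KO group, and for CDA-HFD 3.05 ± 0.653 and 0.163 ± 0.154, lower in every KO liver than in any WT liver of its diet, although 76.3% of its exon bases are shared with Nop9 on the opposite strand. Alb, the plasma albumin gene of hepatocytes, was between 23950 and 79870 CPM in every liver. KO liver 5 on CDA-HFD stood apart from the other 4 KO livers on that diet. Its 12 macrophage and Kupffer cell markers summed to 2099 CPM against 640 to 849, and its 6 hepatocyte markers to 33280 against 66520 to 97460. The macrophage and Kupffer cell markers did not all go 1 way. In this liver Gpnmb was the highest of the group at 699 CPM, and Clec4f and Cd5l were the lowest at 25.7 and 52.1 CPM. The main comparisons of the lymphocyte markers on CDA-HFD are given with and without KO liver 5.

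**Figure D1:**
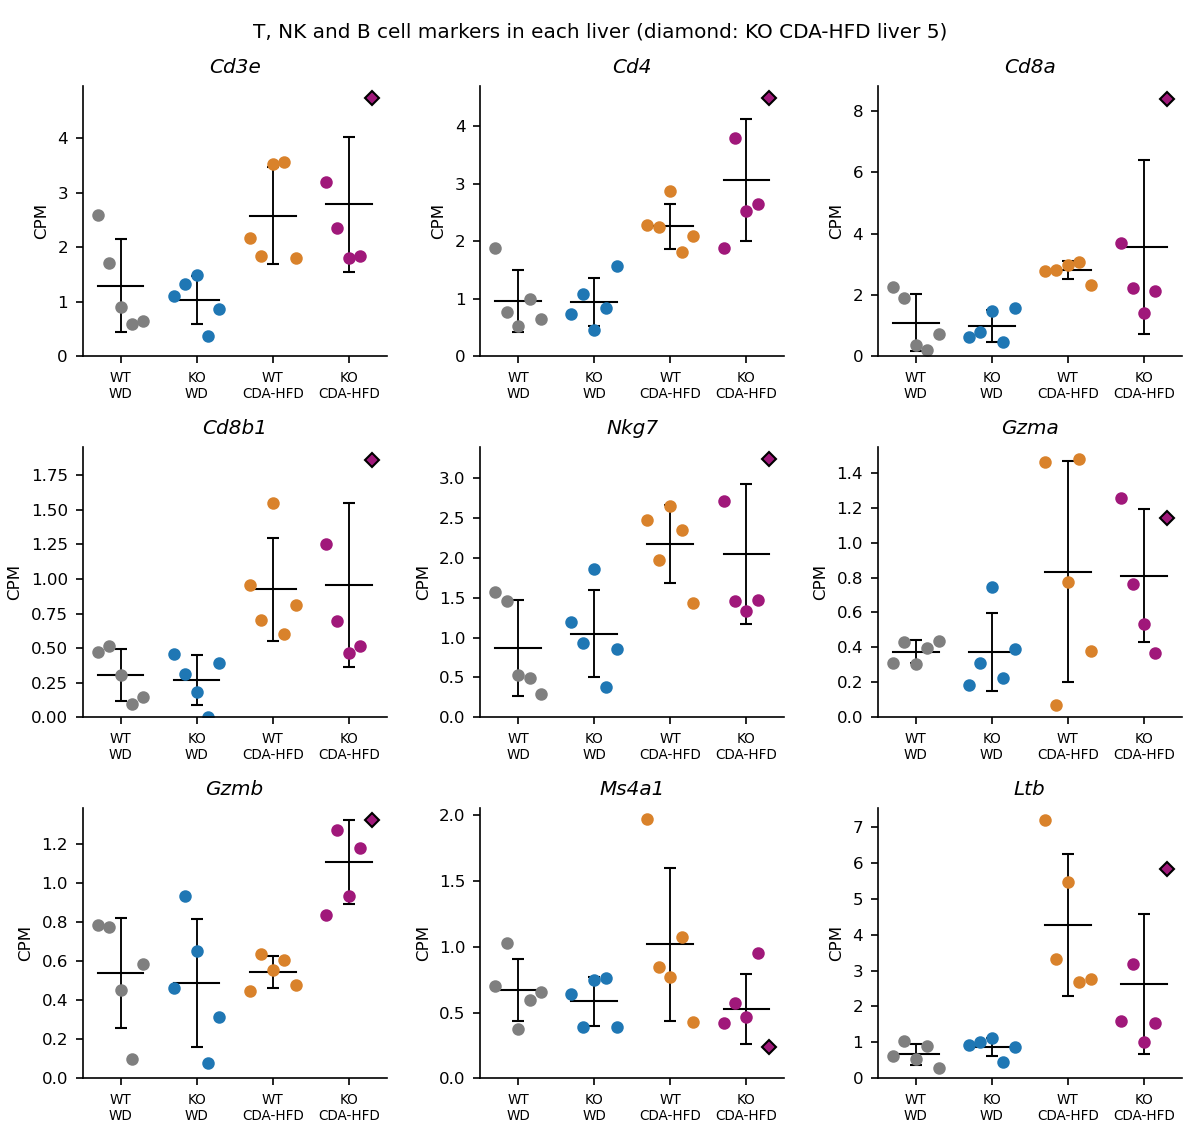
Level of each of the 9 lymphocyte markers in each liver, in CPM on a linear axis from 0, for the 4 groups of vector and diet; points are livers, horizontal lines the means and bars 1 SD over 5 livers. The diamond is KO liver 5 on CDA-HFD, the highest of its group for 7 of the 9 genes (not for Gzma and Ms4a1), and Gzmb is the panel where all 5 KO livers lie above all 5 WT livers on CDA-HFD. The share of all genes separated in this way was not counted.

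Cd3e encodes the epsilon chain of CD3, which every mature T cell needs to signal through its antigen receptor. Cd3e lies at chr9:44998740-45009627 on the minus strand (GRCm38, GENCODE M21, as for the other genes), and 3.31% of its exon bases are shared with Gm48719 on the opposite strand. On WD it was at 2.59, 1.72, 0.908, 0.595 and 0.657 CPM in WT livers 1 to 5 and at 1.10, 1.32, 1.49, 0.380 and 0.861 CPM in KO livers. On CDA-HFD it was at 2.16, 1.83, 3.54, 3.56 and 1.81 CPM in WT livers and at 3.21, 2.35, 1.80, 1.84 and 4.74 CPM in KO livers. WT liver 1 was the highest on WD and reached into the CDA-HFD range, whereas in KO livers the 2 diets did not overlap. WT and KO livers overlapped on both diets, with means of 2.58 ± 0.894 and 2.79 ± 1.23 CPM (SD, n = 5) on CDA-HFD.

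Cd4 marks helper and regulatory T cells and is also carried by some macrophages and dendritic cells. The gene lies at chr6:124864692-124888221 on the minus strand. Its levels on WD were 1.88, 0.774, 0.530, 0.992 and 0.657 CPM in WT livers and 0.736, 1.09, 0.466, 0.836 and 1.57 CPM in KO livers. On CDA-HFD they were 2.29, 2.26, 2.87, 1.81 and 2.09 CPM in WT livers and 1.88, 3.80, 2.53, 2.65 and 4.50 CPM in KO livers. All CDA-HFD livers but WT liver 4, the lowest of them, lay at or above the highest WD liver of their vector. KO livers 2 and 5 were above every WT liver on CDA-HFD, and the other 3 KO livers lay within the WT range.

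Cd8a encodes the alpha chain of CD8, found on cytotoxic T cells and, as a pair of alpha chains, on some dendritic and innate lymphoid cells. It lies at chr6:71373427-71379173 on the plus strand. In WT livers it was at 2.27, 1.89, 0.378, 0.198 and 0.730 CPM on WD and at 2.80, 2.82, 2.98, 3.09 and 2.33 CPM on CDA-HFD. The CDA-HFD values of WT livers were close to each other and all above the WD values. In KO livers it was at 0.644, 0.778, 1.49, 0.456 and 1.57 CPM on WD and at 3.69, 2.22, 1.40, 2.13 and 8.40 CPM on CDA-HFD. KO liver 5 held 3.56 times the mean of the other 4 KO livers, and 140 reads of Cd8a against 21 to 53, so the KO group was the most scattered of the 4.

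Cd8b1 encodes the beta chain, which is restricted to conventional CD8 T cells, and lies beside Cd8a at chr6:71322788-71337494 on the plus strand. It was at 0.470, 0.516, 0.303, 0.0992 and 0.146 CPM in WT livers and at 0.460, 0.311, 0.186, 0 and 0.392 CPM in KO livers given WD. The 0 is KO liver 4, where a count of 0 allows up to 0.228 CPM. On CDA-HFD it was at 0.953, 0.705, 1.55, 0.604 and 0.808 CPM in WT livers and at 1.25, 0.697, 0.466, 0.515 and 1.86 CPM in KO livers. The diets did not overlap in WT livers or in KO livers, and the vectors overlapped on either diet. KO livers 1 and 5 were the 2 highest of their group for Cd3e, Cd8a, Cd8b1, Nkg7 and Gzma.

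Nkg7 encodes a membrane protein of cytotoxic granules in NK cells and cytotoxic T cells (chr7:43437073-43438249, plus strand). In WT livers it was at 1.57, 1.46, 0.530, 0.496 and 0.292 CPM on WD and at 2.48, 1.97, 2.65, 2.35 and 1.43 CPM on CDA-HFD. In KO livers it was at 1.20, 0.933, 1.86, 0.380 and 0.861 CPM on WD and at 2.72, 1.46, 1.33, 1.47 and 3.24 CPM on CDA-HFD. Among the WT livers on WD, livers 1 and 2 were the highest, as for Cd3e, and KO liver 3 was above both. KO liver 5 on CDA-HFD was the highest of all 20. Per kilobase of exon, Nkg7 had the second highest level of the 9 markers on CDA-HFD in WT livers, at 2.38 CPM per kb against 2.82 for Ltb and 0.632 for Cd3e, and the lowest was Ms4a1 at 0.165.

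Gzma and Gzmb encode granzyme A and granzyme B, the granule proteases that NK cells and cytotoxic T cells release into target cells. They lie at chr13:113093825-113100981 and chr14:56258838-56262260, both on the minus strand. Gzma was at 1.46, 0.0705, 0.773, 1.48 and 0.380 CPM in WT livers and at 1.25, 0.760, 0.532, 0.368 and 1.14 CPM in KO livers on CDA-HFD. The WT values ran from 1 to 23 reads, so the spread within that group covered the whole KO range. On WD, Gzma lay between 0.184 and 0.746 CPM in all 10 livers.

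Gzmb was at 0.445, 0.634, 0.552, 0.604 and 0.475 CPM in WT livers on CDA-HFD, from 7, 9, 10, 9 and 10 reads. In KO livers on CDA-HFD it was at 0.836, 1.27, 0.931, 1.18 and 1.32 CPM, from 12, 20, 14, 16 and 22 reads. Every KO liver was above every WT liver. On WD it was at 0.784, 0.774, 0.454, 0.0992 and 0.584 CPM in WT livers and at 0.460, 0.933, 0.652, 0.0760 and 0.313 CPM in KO livers. The WD groups overlapped through most of their range, and the WT livers on CDA-HFD lay inside the WT range on WD.

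Ms4a1 encodes CD20, a surface protein of B cells that is lost from plasma cells (chr19:11249675-11266241, minus strand). It was at 0.705, 1.03, 0.378, 0.595 and 0.657 CPM in WT livers and at 0.644, 0.389, 0.746, 0.760 and 0.392 CPM in KO livers given WD. On CDA-HFD it was at 1.97, 0.846, 0.773, 1.07 and 0.428 CPM in WT livers and at 0.418, 0.570, 0.466, 0.956 and 0.240 CPM in KO livers. WT liver 1 was the highest of all 20, and KO liver 5, the highest of its group for most T cell markers, was here the lowest of all 20. The 2 groups overlapped, with 2 KO livers below the lowest WT liver.

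Ltb encodes lymphotoxin beta, which anchors lymphotoxin alpha in the membrane and signals through LTBR (chr17:35194439-35196320, plus strand). In WT livers it was at 0.627, 1.03, 0.530, 0.893 and 0.292 CPM on WD and at 7.18, 3.31, 5.47, 2.69 and 2.76 CPM on CDA-HFD. Every WT liver on CDA-HFD was above every WT liver on WD. In KO livers it was at 0.920, 1.01, 1.12, 0.456 and 0.861 CPM on WD and at 1.60, 3.17, 0.998, 1.54 and 5.82 CPM on CDA-HFD. KO livers 1, 3 and 4 on CDA-HFD were below every WT liver on that diet, and KO liver 3 lay within the WD range.

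The first comparison asks whether deleting Cideb in hepatocytes goes with a different level of the lymphocyte markers, and on WD none of the 9 differed past the threshold. Cd3e, Nkg7 and Ltb had enough reads for the filter, with log2 fold changes (KO against WT) of -0.34 (SE 0.448), 0.24 (SE 0.489) and 0.39 (SE 0.344) and edgeR adjusted p-values of 0.828, 0.895 and 0.719. In this comparison 12 of 15848 genes passed (0.0757%), 1702 were under an unadjusted p of 0.05 but none of these 3 markers, and DESeq2 called 162 genes with none of them. Fitted without the filter on low counts, all 9 markers were tested, 0 passed and 0 were under an unadjusted p of 0.05, against 38 of 33547 genes (0.113%). The 9 fitted differences had a median of -0.17 on the log2 scale beside 0.00049 over all genes. Their intervals were wide: that of Cd8b1 ran from -1.48 to 1.05, and a difference inside such an interval was not detectable at this depth.

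On CDA-HFD, Gzmb was the 1 marker of the 9 that passed the test between KO and WT livers. It was higher in 5 of 5 KO livers, with means of 1.11 ± 0.212 and 0.542 ± 0.0812 CPM (SD over 5 livers). The log2 fold change was 1.02, with a 95% interval of 0.55 to 1.5 (edgeR adjusted p = 0.0167). The exact two-sided permutation test of its CPM gave p = 0.00794, the smallest that 252 splits allow, as 1 of 36 such tests over the 9 markers and 4 comparisons, of which 12 were under 0.05. In all, 2664 of 17204 genes passed in either direction (15.5%), so 1 of 9 is near the background. Of these 17204 genes, 6076 were under an unadjusted p of 0.05 in edgeR. The share of all genes whose groups do not overlap was not counted, here or between the diets. Gzmb reached the level of the filter in 5 KO livers and 1 WT liver on CDA-HFD, so it entered the filtered fit through the KO group. Without the filter on low counts Gzmb also passed (edgeR adjusted p = 0.0380), with 5.99% of 34585 genes called. It rests on 84 reads in 5 KO and 45 in 5 WT livers, and it missed the threshold narrowly where libraries were scaled by their size only and where all 20 livers were fitted together, with adjusted p-values of 0.00793 to 0.0504 over 17 alternatives.

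**Figure D2:**
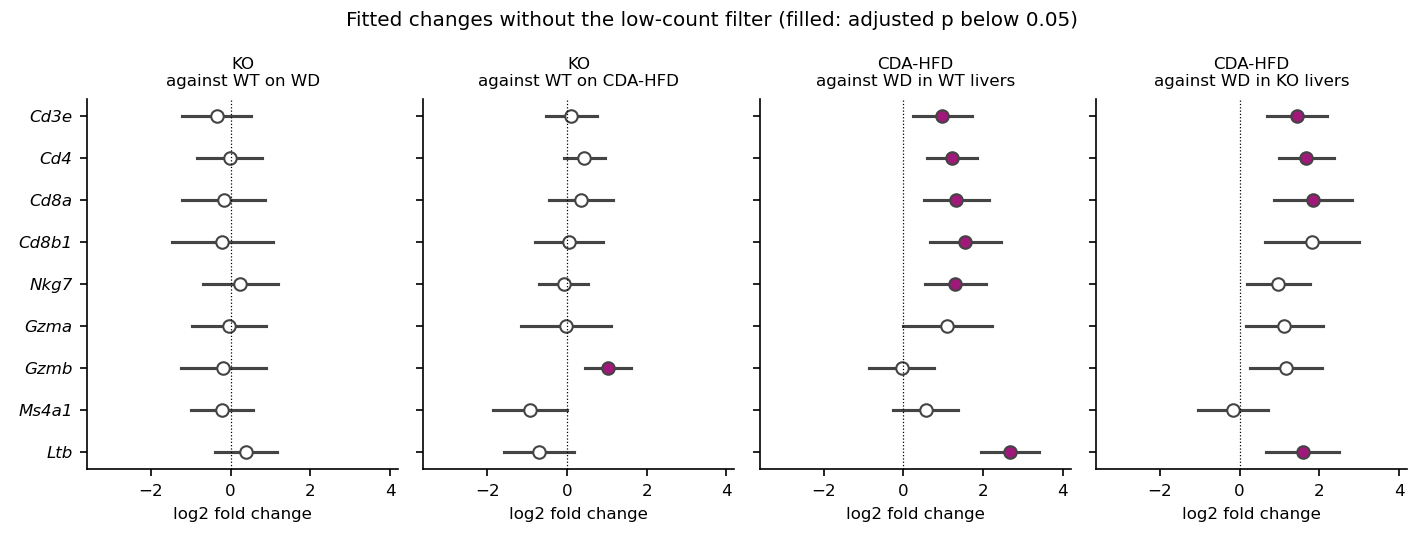
Log2 fold change of each marker in the 4 comparisons, fitted without the low-count filter so that all 9 have a value; points are estimates, bars 95% intervals, and filled points passed at an edgeR adjusted p under 0.05. On WD no marker is filled, on CDA-HFD only Gzmb is between KO and WT, and 6 markers in WT and 4 in KO livers are filled between the diets.

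The other 8 markers did not pass between KO and WT livers on CDA-HFD. The T cell markers had log2 fold changes of 0.11 (Cd3e, SE 0.320), 0.44 (Cd4, SE 0.242), 0.35 (Cd8a, SE 0.414) and 0.050 (Cd8b1, SE 0.411), with edgeR adjusted p-values of 0.217 to 0.942. Nkg7 was at -0.088 (SE 0.292) and Gzma at -0.019 (SE 0.571). Ms4a1 was at -0.94 (SE 0.443, adjusted p = 0.155) and Ltb at -0.70 (SE 0.462, adjusted p = 0.299). The values of Cd3e and Cd8b1 changed sign with library size scaling (-0.023 and -0.10), and the interval of Cd3e ran from -0.59 to 0.81. Without the filter Ms4a1 had an unadjusted p of 0.0481 and an adjusted p of 0.232. Without KO liver 5, the fitted values were -0.17 for Cd3e, -0.25 for Cd8a, -0.35 for Cd8b1 and -0.32 for Nkg7, none past the threshold, Gzmb remained past it at 0.96 (adjusted p = 0.00793), and Ltb passed at -1.22 (adjusted p = 0.0262), and 7201 genes were called against 2664. Ltb then averaged 1.83 ± 0.934 CPM in 4 KO livers against 4.28 ± 1.98 in 5 WT livers (exact permutation p = 0.0635).

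The second comparison sets CDA-HFD against WD, and here most T cell markers and Ltb were higher. In WT livers fitted without the filter, 6 of 9 markers were higher on CDA-HFD at an edgeR adjusted p under 0.05: Cd3e, Cd4, Cd8a, Cd8b1, Nkg7 and Ltb. Among all 34720 genes, 14% were higher. The median of the 9 log2 fold changes was 1.22, beside 0.047 over all genes. With the filter, 6 markers were tested and 4 passed (25.9% of all genes were higher), but Cd8a, for one, reached the level of the filter in 5 WT livers on CDA-HFD and 2 on WD, so the markers that passed the filter are no fair sample of the 9. Diet is tied to whatever else differed between the feeding experiments, which cannot be told apart from it.

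Ltb had the largest of these differences in WT livers, at 4.28 ± 1.98 against 0.675 ± 0.294 CPM (SD, n = 5), 6.35 times in means, with a log2 fold change of 2.67 (SE 0.383, edgeR adjusted p = 0.000180). Cd4 rose by 1.22 (SE 0.302, adjusted p = 0.00546 in edgeR), Cd8a by 1.33 (SE 0.442, adjusted p = 0.0251) and Nkg7 by 1.31 (SE 0.387, adjusted p = 0.0143). The Cd8a call was lost without WT liver 3 or 5 on WD (adjusted p = 0.0531 and 0.0628). Cd8b1, below the filter, was 3.01 times higher in means with no overlap between the diets (exact permutation p = 0.00794). Cd3e was at 0.98 (SE 0.391), and its adjusted p was 0.0547 with the filter and 0.0491 without it. Gzmb had the same level on both diets in WT livers within their spread, at 0.542 and 0.539 CPM (log2 fold change -0.034, interval -0.85 to 0.78). Gzma and Ms4a1 had log2 values of 1.11 (interval -0.0042 to 2.22) and 0.56 (interval -0.26 to 1.38) without the filter and did not pass.

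In KO livers, 4 of 9 markers were higher on CDA-HFD in the fit of all 9, against 5.08% of 33711 genes: Cd3e, Cd4, Cd8a and Ltb. The median of the 9 log2 fold changes was 1.43, beside 0.038 over all genes. With the filter the 4 that passed among the 6 tested (9.19% of all genes were higher) had log2 fold changes of 1.44 (Cd3e, SE 0.380), 1.69 (Cd4, SE 0.336), 1.86 (Cd8a, SE 0.527) and 1.60 (Ltb, SE 0.481). Their edgeR adjusted p-values were 0.0259, 0.00790, 0.0343 and 0.0419. Cd8b1 was 3.55 times higher in means without overlap (exact permutation p = 0.00794) but had an adjusted p of 0.0559 without the filter. Gzmb averaged 1.11 against 0.487 CPM (log2 1.18, SE 0.418, adjusted p = 0.0724), Nkg7 2.04 against 1.05 CPM (0.98, SE 0.397, adjusted p = 0.108), and Ms4a1 0.530 against 0.586 CPM. Some of these calls depended on single livers: over 17 alternatives Ltb lost its call in 8 (the replicate block, and without any 1 of the 5 KO livers on WD or without KO liver 2 or 5 on CDA-HFD), Cd8a in 4, Cd3e in 2 and Cd4 in 0. Without KO liver 5 on CDA-HFD the log2 fold changes were 1.16 for Cd3e, 1.5 for Cd4, 1.25 for Cd8a and 1.07 for Ltb (adjusted p = 0.0629). The count was 2 without KO liver 1, 4 or 5 on WD or KO liver 1 on CDA-HFD.

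The size of these diet differences depends on the scaling. With library sizes alone, the median of all genes moved by 0.42 (log2) between diets in WT livers and by 0.25 in KO livers, and 9120 of 10690 calls and 3371 of 3924 calls were then higher, compared with 4335 higher and 4207 lower and with 1506 higher and 1286 lower under TMM. Between KO and WT livers on CDA-HFD the median moved by -0.19, with 517 of 1709 calls higher, compared with 1409 higher and 1255 lower. The log2 values of the 4 markers called in each diet comparison with the filter exceeded those shifts. These markers were picked by their calls, which at their SEs require large values, so this is no test of the scaling.

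Whether the KO difference itself depended on diet was tested as an interaction over all 20 livers, and 0 of 9 markers passed. Gzmb had the smallest p, with an interaction of 1.21 on the log2 scale (SE 0.575, unadjusted p = 0.0484, edgeR adjusted p = 0.322), and Ltb was at -1.08 (SE 0.656, adjusted p = 0.440). In this test 99 of 17804 genes passed (0.556%), 2736 were under an unadjusted p of 0.05, among them Gzmb alone of the 9, and DESeq2 called 427 genes with no marker. Without the filter 0.141% of 36791 genes and again no marker passed. Without KO liver 5 on CDA-HFD, 2138 genes passed and still none of the 9, with Ltb at -1.60 (adjusted p = 0.0692).

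The wider T cell list held 20 genes of the antigen receptor complex and T cell signaling, Cd3e among them. Trac, Trbc1 and Trbc2 of this list were at 0 reads in every liver. Cd3e had reads in every liver, so these 0s are not taken as absent receptor RNA, and their cause was not tested. Of 17 tested without the filter, 13 were higher on CDA-HFD in WT livers and 10 in KO livers, beside 14% and 5.08% of all genes, with medians of 1.10 and 1.30 on the log2 scale. Between KO and WT livers on CDA-HFD, 1 of 17 tested with the filter was higher and 0 lower, beside 15.5% of all genes called, with a median of 0.031 beside 0.0050 over all genes. The 1 was Zap70, a kinase that acts directly below the receptor, at 1.14 (SE 0.265, edgeR adjusted p = 0.0213), a call lost in 5 of 17 alternatives. Il7r, the receptor of a T cell survival cytokine, was at -2.05 (SE 0.663, adjusted p = 0.0565) and averaged 24.5 ± 8.79 CPM in WT and 5.87 ± 8.30 in KO livers. It passed in 5 of 17 alternatives. KO liver 5 was at 20.7 CPM and the other 4 KO livers averaged 2.16 ± 0.329. Without liver 5, Il7r was at -3.50 (edgeR adjusted p = 5.5e-05) and 3 genes of this list passed, beside 7201 of 17411 genes.

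Of the 18 NK and cytotoxic genes, 9 were higher on CDA-HFD in WT livers and 4 in KO livers without the filter, beside 14% and 5.08% of all genes. Gzmb was the 1 of 13 that passed between KO and WT livers on CDA-HFD, where 15.5% of all genes did. Without KO liver 5, 3 of the list passed, beside 7201 of 17411 genes. Klrk1, Klrd1 and Klrb1c, receptors of NK cells, had log2 values of -0.50, -0.92 and -0.38 there and did not pass. Prf1, which encodes perforin, the pore protein released with granzymes, and which was picked after its values were seen, was at 0.10 (SE 0.388, edgeR adjusted p = 0.872). Of the B cell list, 10 genes were tested between KO and WT on CDA-HFD and 0 passed, with a median of -0.59. There 2 passed without KO liver 5, beside the same 7201 of 17411 genes. Cd79b, a chain of the B cell receptor, was at -0.80 (SE 0.344) and Fcrla and Bank1 at -0.64 and -0.63. Between the diets, without the filter, 2 of 11 B cell genes were higher on CDA-HFD in WT livers and 1 in KO livers, near the shares of all genes, with medians of 0.56 and -0.061. Ighm and Ighd were at 0 reads in every liver, as were Igkc, Ighg2c and Iglc2 of the plasma cell list. Cd79b and Jchain had reads, so these 0s are not taken as absent antibody RNA, and their cause was not tested. Of the plasma cell list, 1 of 2 genes tested between KO and WT on CDA-HFD passed, where 15.5% of all genes did. Jchain, which joins the chains of secreted antibodies, was lower in KO livers by that edgeR test (-1.64, SE 0.409, adjusted p = 0.0264), at 17.3 ± 10.7 against 53.7 ± 26.2 CPM. The call was lost in 7 of 17 alternatives.

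Of 7 genes tested in the list of lymphotoxin ligands and receptors, 2 were lower and 0 higher in KO than in WT livers on CDA-HFD. Among all genes 7.29% were lower and 8.19% higher. The 2 were Tnf and Tnfrsf1b, at -1.18 (SE 0.283, edgeR adjusted p = 0.0233) and -0.56 (SE 0.161, adjusted p = 0.0399), calls lost in 5 and 9 of 17 alternatives. Ltbr, the receptor of the lymphotoxin heterotrimer, was at 77.8 ± 4.37 CPM in WT and 89.3 ± 15.9 in KO livers and did not pass (0.19, or -0.014 with library size scaling). Lta, the partner of Ltb, averaged 0.0774 CPM in WT livers on CDA-HFD and was at 0 reads in 4 of 5 WT and 5 of 5 KO livers on WD. No gene of the lists for exhausted and resident CD8 T cells, regulatory T cells or lymphocyte homing passed between KO and WT on either diet. With the filter, 15.5% of all genes passed on CDA-HFD and 0.0757% on WD. Without KO liver 5 on CDA-HFD, 2, 1 and 1 of them passed, beside 7201 of 17411 genes.

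**Figure D3:**
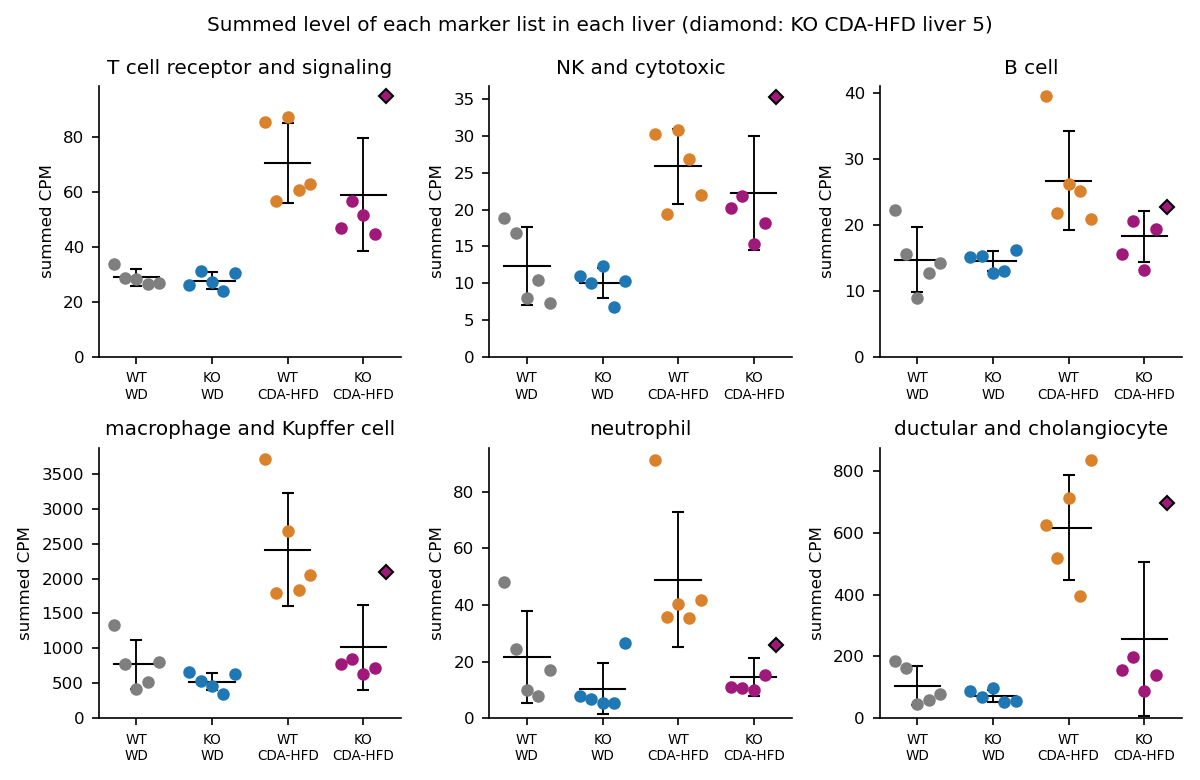
Summed CPM of 6 marker lists in each liver on linear axes from 0, for the 4 groups; points are livers, horizontal lines the means and bars 1 SD over 5 livers, and the diamond is KO liver 5 on CDA-HFD. On CDA-HFD, KO livers 1 to 4 lie below all WT livers for the B cell, macrophage, neutrophil and ductular lists. The B cell margin is narrow, with KO liver 2 at 20.66 CPM and WT liver 5 at 20.97. For the T cell list KO livers 1, 3 and 4 also lie below all WT livers. KO liver 2, at 56.78 CPM, is just above the lowest WT liver, at 56.54. Il7r is part of the T cell sum, with a mean of 2.16 CPM in KO livers 1 to 4 and 20.7 CPM in KO liver 5. The T cell sum without Il7r was not compared. For the NK list KO livers 3 and 4 lie below all WT livers, and KO livers 1 and 2 overlap with them.

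Other white blood cell lists were compared in the same way as the lymphocyte markers. On CDA-HFD, KO against WT, 6 of 7 neutrophil markers, 7 of 8 pan-leukocyte genes and 5 of 12 macrophage and Kupffer cell markers were lower and none higher. Their medians were -2.40, -1.16 and -0.80, and 7.29% of all genes were lower. Of 10 dendritic cell markers 1 was higher and 0 lower, beside 8.19% of all genes higher, with a median of 0.013. The summed neutrophil level was 35.5 to 91.2 CPM in WT and 10.1 to 25.9 in KO livers, with no marker of the list at 0 in every liver. The summed T cell list ran from 56.5 to 87.2 CPM in WT livers and was at 47.0, 56.8, 51.6, 44.6 and 94.9 CPM in KO livers. The difference between the T cell and the neutrophil list was not tested. In WT livers on WD, livers 1 and 2, which had the most Cd3e, Cd8a and Nkg7, also had the largest sums of neutrophil markers, at 48.2 and 24.5 CPM, and of ductular genes, at 185 and 162 CPM against 45.1 to 77.2 in the other 3. The part of these other cell types in the marker levels was not tested.

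Several T cell and granule markers went together across the 20 livers. Within groups, after the group means were removed, Cd3e correlated with Nkg7 at r = 0.91, with Cd8a at 0.79 and with Cd8b1 at 0.78, but with Cd4 at 0.28 and with Ms4a1 at -0.077. Over 19 livers, without KO liver 5 on CDA-HFD, these were 0.90, 0.76, 0.74, 0.18 and 0.075. The genes most like Cd3e among 14065 others over 20 livers were Ccl5 (0.92), Gimap3 (0.90) and Cd6 (0.90). For Nkg7 they were Ccl5 (0.91), Faxc (0.90) and Qsox2 (0.90). For Gzma they were Carmil2 (0.85), Sufu (0.81) and Pdcd1 (0.79), and for Ms4a1 Tfec (0.74), Bank1 (0.72) and Afap1l2 (0.67). These values share libraries and diet groups and are descriptions of log2 CPM.

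The neighbours of Ltb were other genes. Among the genes most like it were Erbb2 (0.96) and Ppp2r2b (0.96). Its correlation with 8 genes of bile ducts and ductular cells, a list added after those neighbours were seen, had a median of 0.89 (0.69 to 0.95), compared with 0.79 (0.72 to 0.87) for 6 T cell genes. For Cd3e the order was the other way, with medians of 0.72 for the ductular and 0.82 for the T cell genes. Cd4, Cd8b1, Nkg7, Gzma and Gzmb had the order of Cd3e. The order of Ltb was not particular to it, as Cd8a had medians of 0.7772 and 0.7742 and Ms4a1 of 0.2057 and 0.04946. Group means were not removed for these correlations, so differences between the diets are part of them. The summed ductular list ran from 394 to 835 CPM in WT livers on CDA-HFD and was at 156, 200, 88.4, 141 and 697 CPM in KO livers, with liver 5 the highest as for Ltb. Of the 8 ductular genes, 8 were higher on CDA-HFD in WT livers and 4 in KO livers with the filter (25.9% and 9.19% of all genes). Without the filter these counts were 8 and 6. Between KO and WT on CDA-HFD 0 passed, or 7 without KO liver 5, where 7201 of 17411 genes passed. Whether this has a part in the Ltb level was not tested.

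**Figure D4:**
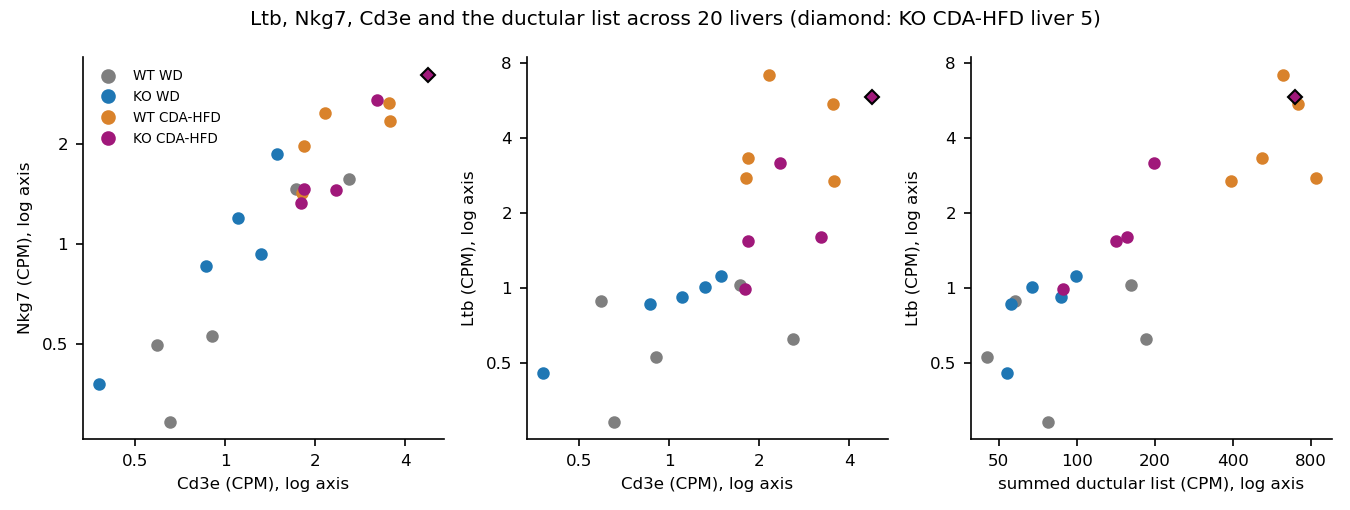
Level in each of 20 livers on log axes, in CPM: Nkg7 against Cd3e, Ltb against Cd3e, and Ltb against the sum of 8 ductular and cholangiocyte genes, colored by group with KO liver 5 on CDA-HFD as a diamond. Nkg7 follows Cd3e through all groups, whereas Ltb reaches 7.18 CPM in WT livers on CDA-HFD at Cd3e levels shared with KO livers.

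Ratios within a liver depend less on the scaling of libraries than levels do, but not free of it, as 0.1 CPM was added to each scaled value. At low counts this addition pulls a log2 ratio toward 0. With 0.5 CPM added instead, the SD of Gzmb to Gzma in WT livers on CDA-HFD was 0.819. The values below are those with 0.1 CPM. The log2 ratio of Ltb to Cd3e averaged 0.66 ± 0.741 (SD, n = 5) in WT livers on CDA-HFD and -0.25 ± 0.618 in KO livers on CDA-HFD, and -0.74 ± 0.857 and -0.15 ± 0.255 on WD. The ratio of Ms4a1 to Cd3e averaged -1.34 ± 0.780 in WT and -2.20 ± 1.11 in KO livers on CDA-HFD, with KO liver 5 at -3.83. The ratio of Cd8a to Cd4 averaged 0.31 ± 0.262 in WT and -0.0080 ± 0.863 in KO livers on CDA-HFD, where KO livers 1 and 5 were at 0.94 and 0.89 and the other 3 below 0. The ratio of Gzmb to Gzma averaged -0.15 ± 1.43 and 0.50 ± 0.730 in the same 2 groups, and the WT values ran from -1.52 to 2.11. Without KO liver 5, the KO means on CDA-HFD were -0.39 for Ltb to Cd3e, -1.79 for Ms4a1 to Cd3e, -0.23 for Cd8a to Cd4 and 0.57 for Gzmb to Gzma (n = 4). Each of these pairs of groups overlapped, and no test was made on the ratios.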

How the data were processed

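Total RNA of 20 mouse livers was sequenced, 5 for each of 4 groups. The authors deposited a table of raw read counts per gene, with no normalization. The build named in the submitters' processing notes is mm10, and the aligner and counter are not given in the sources used here. The labels name a directional library kit and the study's methods another, so the use of strand is unknown; the labels also give the same feeding time for both diets while the study elsewhere describes a longer time on WD. The labels do not say that each library is a separate animal, so p-values measure the spread between these libraries. The 5 entries of the table that are no genes (50.3 to 57.0% of the tallied reads, with 20.7 to 28.8% in no feature and 18.0 to 28.7% mapped to several places) were left out. Depth was 11697049 to 16827147 reads on genes, and intervals on counts cover counting error only.

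Counts were fitted with edgeR 4.0.16 (R 4.3.3, limma 3.58.1) by the quasi-likelihood F test after filterByExpr (min.count 10) and TMM scaling, on the livers compared, with Benjamini-Hochberg adjustment over all genes tested and a threshold of 0.05. The interaction used all 20 livers. Single markers were compared by a two-sided exact permutation test of CPM (Python 3.11.15, scipy 1.17.1). For correlations, log2 CPM were taken with prior count 2, and ratios added 0.1 CPM. Alternatives were RLE factors, library size alone, DESeq2 1.42.0, no filter, min.count 5, a replicate block, all 20 livers in one fit, a ratio pseudocount of 0.5 CPM and leaving out each liver. Correlations, ratios and levels without KO liver 5 on CDA-HFD were chosen after seeing the data. The fits were tested on simulated data. None of 40 pairs of libraries of one group were copies (chi-square per gene 4.48 to 74.7).

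All 9 markers are named, with up to 3 genes of each list by the smallest adjusted p between KO and WT livers on CDA-HFD, Cideb and Alb as checks, and the 3 genes most like Cd3e, Nkg7, Gzma, Ms4a1 and Ltb, of which 1 is not reported here; other genes named were picked after their values were seen. Markers and lists were chosen with earlier results of these data known, and the ductular list was added after the correlations of Ltb were seen. Promoters are from RefSeq (GRCm38.p6) and positions from GENCODE M21 (GRCm38). Figures were drawn with matplotlib 3.10.9.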

Additional observations from a re-analysis of the deposited data

How the results depend on the processing

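Gzmb between KO and WT livers on CDA-HFD was the 1 marker called, and 0 were called with library size scaling and with all 20 livers in one fit; leaving out a liver gave 1 to 2. Leaving out a liver gave 4 to 6 markers between diets in WT livers and 2 to 4 in KO livers, and 0 to 0 in the other comparisons. Over all genes, KO against WT on WD called 12, but 162 with DESeq2, 38 without the filter, 26 with all 20 livers, 8 with library size scaling and 1 to 33 with a liver left out. On CDA-HFD, KO against WT called 2664, but 4140 with DESeq2, 4170 with all 20 livers and 1709 with library size scaling. Leaving out a liver there gave 709 to 7201, more than 1.5 times from the full count for every liver except WT livers 2 and 4. CDA-HFD against WD in KO livers called 1506 genes higher and 1286 lower, but in all 4476 with all 20 livers and 1568 to 2881 with a liver left out, and in WT livers 7549 to 8723. The interaction called 99, but 427 with DESeq2, 52 without the filter, 44 with library size scaling and 35 to 2138 with a liver left out.

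Replicate numbers did not pair the livers: residual correlations of livers with the same number ran from -0.367 to 0.347 between KO and WT on CDA-HFD, -0.268 to 0.284 on WD, -0.145 to 0.334 between diets in WT and -0.174 to 0.349 in KO livers. With the replicate block 2 genes were called on WD, 2459 on CDA-HFD, 8343 and 2044 between diets in WT and KO livers, and 8 in the interaction, with 0, 1, 4, 3 and 0 markers.

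Differences near 0 changed sign. With library size scaling, KO against WT on CDA-HFD, Cd3e was at -0.023, Cd8b1 at -0.10, Ltbr at -0.014 and Hba-a1 at -0.0091, the Gzma interaction at -0.14 and the Ms4a1 diet difference in KO livers at 0.0148 CPM. The Gzma interaction was at -5.3e-05 with RLE factors, and with the block Cd8b1 was at -0.0038 and Gzma at 0.13 on CDA-HFD. With a liver left out, log2 values of KO against WT on CDA-HFD ran from -0.37 to 0.73 for Ccl19, -0.17 to 0.26 for Cd3e, -0.25 to 0.56 for Cd8a, -0.35 to 0.32 for Cd8b1, -0.29 to 0.28 for Gzma, -0.055 to 0.75 for Hba-a1 and -0.32 to 0.035 for Nkg7. On WD they ran from -0.52 to 0.075 for Cd3e and -0.063 to 0.58 for Nkg7, and in the interaction from -0.080 to 0.76 for Cd8a, -0.13 to 0.53 for Cd8b1 and -0.26 to 0.39 for Gzma. Differences in mean CPM, KO minus WT on WD, ran from -0.185 to 0.200 for Cd4, -0.331 to 0.187 for Cd8a, -0.0889 to 0.0305 for Cd8b1, -0.0975 to 0.0429 for Gzma, -0.164 to 0.0508 for Gzmb and -0.161 to 0.00200 for Ms4a1. Between diets they ran from -0.107 to 0.0645 for Gzmb in WT and -0.162 to 0.0165 for Ms4a1 in KO livers. The cause of these changes was not tested.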

Other observations

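Genes of T cell states and of homing were compared between the diets by the same fits as the markers. Of 8 genes of exhausted and resident CD8 T cells fitted without the filter, 5 were higher and 1 lower on CDA-HFD in WT livers, and 3 were higher in KO livers, beside the 14% and 5.08% of all genes. Havcr2, an inhibitory receptor that myeloid cells also carry, averaged 9.39 ± 3.43 CPM against 1.91 ± 0.472 (SD, n = 5) in WT livers (log2 2.28, edgeR adjusted p = 2.2e-06). Itgae, the integrin chain CD103 of resident T cells and some dendritic cells, was at 3.34 ± 0.959 against 0.656 ± 0.387 CPM, a log2 fold change of 2.34. Tox, a nuclear factor of exhausted T cells, was the 1 lower gene in WT livers, at 15.8 ± 4.38 against 25.8 ± 3.77 CPM, and at 21.5 ± 6.52 against 20.3 ± 5.73 CPM in KO livers. Cd3e averaged only 2.58 and 1.29 CPM in the same 2 WT groups. Which cells carry the Tox RNA was not tested, so its level is not read as a T cell state.

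Of 9 homing and follicle genes, 4 were higher and 1 lower on CDA-HFD in WT livers and 2 higher in KO livers, beside the same shares of all genes. Ccr7, which guides T cells and dendritic cells to lymphoid tissue, was at 3.04 ± 0.610 against 0.574 ± 0.221 CPM in WT and 1.65 ± 1.13 against 0.541 ± 0.366 CPM in KO livers. Among 6 regulatory T cell genes 1 was higher in each vector group, where 14% of all genes were higher in WT and 5.08% in KO livers, Ctla4 in both, and Foxp3, the defining factor of these cells, averaged 0.893 to 1.35 CPM in the 4 groups and did not pass. Pdcd1, Itgae, Ctla4 and Foxp3 were picked after their values were seen.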
